A study of Mus musculus with 12 samples.

Results

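Chromatin accessibility was compared between dexamethasone-treated and control wild-type Th17 cells, 3 libraries against 3, out of 12 libraries in the series. The 6 libraries were chosen by their labels alone: genotype WT (C57/B6) with treatment control, and the same genotype with treatment Dex. Naive CD4+ T cells from mouse spleen and draining lymph nodes (dLN) were cultured into Th17Hom cells, a state of the helper T cells that secrete IL-17, and were then kept for 2 days with or without dexamethasone. Each library came from 6000 sorted cells, tagmented with Tn5 transposase (ATAC-seq) and amplified for 16 PCR cycles. The other 6 libraries, 3 control and 3 Dex, were labelled as conditional knockout (cKO) for the glucocorticoid receptor. They are used here to show where the WT response differs and, by their control levels, to sort peaks by level. They also enter the filter of tested peaks, the scaling and the estimate of spread in the shared fit. Neither the driver of that deletion, the Dex dose, nor what the control cells received is given in the sources used here. Nothing in the labels says that the 3 libraries of a group came from separate mice or cultures, so p-values cover only how far these samples spread, which may be technical. A level is given in CPM, the counts of a peak scaled by the TMM-adjusted size of its library. A log2 fold change is Dex over control with its standard error (SE), and a peak is called at an edgeR quasi-likelihood adjusted p under 0.05 (Benjamini-Hochberg over 202587 tested peaks).

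Dexamethasone (Dex) is a synthetic glucocorticoid. It enters the cell and binds the glucocorticoid receptor, the product of Nr3c1, which then moves to the nucleus and binds DNA as a dimer at glucocorticoid response elements (GREs), inverted repeats of a short hexamer. Receptor bound at distal enhancers can open chromatin and induce genes, while many inflammatory genes are restrained through contact of the receptor with AP-1 and NF-kB. In T cells glucocorticoids are known for inducing apoptosis of immature cells, for raising Tsc22d3, Il7r and Cxcr4, and for lowering cytokine output. A change in accessibility in bulk cells can be a change in the share of cells with the site open or in how open it is per cell, and these cannot be told apart.

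Promoter sequence was available as RefSeq windows of 250 bases before to 50 bases after a transcript start (GRCm38.p6, the build that mm10 names), 32851 windows in all and 35 of them inside or overlapping a peak that was higher with Dex. The full GRE, AGAACA and TGTTCT with NNN between them on either strand, was in 3 of all the windows (0.00913%), and 1 of the 3 belonged to Sgk1, a kinase named for its induction by serum and glucocorticoids. The shorter form, GNACA and TGTNC with NNN between, was in 156 windows (0.475%) and in 2 of the 35, those of Sgk1 and of Gm6093, a gene that RefSeq does not list as protein-coding. The AP-1 letters TGANTCA were in 7 of the 35 windows (20%) and in 7.81% of all windows. Every match of the full GRE is also one of the shorter form. Of the 16541 windows that touch a tested peak, 0.339% held the shorter GRE and 6.38% the AP-1 letters. For the RUNX letters TGTGGT, ETS GGAAGT, KLF GGGNGTG, STAT TTCNNNGAA, FOX TGTTTAC and the NF-kB motif, also on either strand, 6, 10, 13, 6, 3 and 0 of the 35 windows matched, against 13.8, 27.1, 36.2, 6.81, 2.62 and 0.447% of those 16541. The ROR letters AGGTCA were in 6 of the 35 windows and in 12.7% of the 16541. The 4 windows below are shown because they hold a GRE or, at the promoter of the costimulatory ligand Cd80 and at the start of the longest run of Dex-raised peaks (Arap2), an AP-1 match. Each reads 5′ to 3′ on the strand of its gene, and capitals mark the match.
Sgk1, chr10:21993640-21993939, plus strand: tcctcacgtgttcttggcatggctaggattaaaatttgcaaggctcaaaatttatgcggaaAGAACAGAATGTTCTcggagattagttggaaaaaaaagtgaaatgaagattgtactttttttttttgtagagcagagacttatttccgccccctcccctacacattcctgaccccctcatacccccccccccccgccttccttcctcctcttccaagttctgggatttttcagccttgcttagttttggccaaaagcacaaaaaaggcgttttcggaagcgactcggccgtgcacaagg
Gm6093, chr13:33569268-33569567, minus strand: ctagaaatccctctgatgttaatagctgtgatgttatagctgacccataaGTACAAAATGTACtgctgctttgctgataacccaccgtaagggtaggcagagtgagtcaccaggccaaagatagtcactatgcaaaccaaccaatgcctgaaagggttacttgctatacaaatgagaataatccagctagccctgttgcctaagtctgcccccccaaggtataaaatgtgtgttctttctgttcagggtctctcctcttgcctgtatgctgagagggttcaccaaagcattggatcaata
Cd80, chr16:38458683-38458982, plus strand: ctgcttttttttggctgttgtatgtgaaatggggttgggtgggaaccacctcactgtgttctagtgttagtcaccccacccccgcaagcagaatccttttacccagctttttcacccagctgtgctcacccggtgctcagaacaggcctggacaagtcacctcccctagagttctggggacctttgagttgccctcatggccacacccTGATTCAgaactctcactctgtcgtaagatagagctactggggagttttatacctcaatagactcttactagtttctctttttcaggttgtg
Arap2, chr5:62766128-62766427, minus strand: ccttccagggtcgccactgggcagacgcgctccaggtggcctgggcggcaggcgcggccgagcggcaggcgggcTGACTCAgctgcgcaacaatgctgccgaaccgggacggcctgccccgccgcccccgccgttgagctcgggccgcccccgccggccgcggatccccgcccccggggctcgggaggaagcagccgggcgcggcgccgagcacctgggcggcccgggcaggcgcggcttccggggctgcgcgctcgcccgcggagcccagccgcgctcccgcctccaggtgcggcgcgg

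The Sgk1 GRE began 189 bases before the start, at 21993701 to 21993715 of chromosome 10, in the gap between a pair of tested peaks and inside neither. The peak on its start side, 21993882 to 21995155, stood at 25.02, 30.7 and 25.4 CPM in the control libraries and 39.4, 39.5 and 33.6 CPM in the Dex libraries (log2 0.47 ± 0.11, adjusted p = 0.0212). The peak on its far side, 21992003 to 21993668, stood at 7.63, 10.1 and 9.32 CPM in the control libraries and 13.6, 11.8 and 14.4 CPM in the Dex libraries (log2 0.54 ± 0.14, adjusted p = 0.0600) and was not called. All 3 Dex libraries lay above all 3 control libraries at both peaks. The call on the start side was lost without control replicates 1 and 3 or Dex replicates 1 and 2, with an adjusted p of up to 0.238.
At Gm6093 the GRE match lay 200 bases before the start and inside a peak (chromosome 13, 33569274 to 33569793) that stood at 1.07, 0.444 and 0.660 CPM in the control libraries and 4.60, 3.74 and 1.93 CPM in the Dex libraries. The groups did not overlap, and the rise was log2 2.29 ± 0.36 (adjusted p = 2.99e-05). The Cd80 promoter peak, with its AP-1 match 42 bases before the start, rose from 21.5 ± 1.93 to 32.2 ± 2.53 CPM (log2 0.58 ± 0.11, adjusted p = 0.00197). The Arap2 promoter peak, with its match 176 bases before the start, rose from 14.8 ± 2.26 to 24.01 ± 2.69 CPM (log2 0.69 ± 0.13, adjusted p = 0.00103).

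Of the 202587 tested peaks, 1081 were called (0.534%), 851 higher with Dex (0.420%) and 230 lower (0.114%). At an unadjusted p under 0.05 there were 16846 (8.32%). The median log2 fold change was 0.83 among the higher calls and -0.81 among the lower ones, against -0.0015 over all tested peaks. Rises of at least 2-fold made up 315 of the higher calls (0.155% of tested peaks), 122 rose at least 3-fold, 59 at least 4-fold and 10 at least 8-fold. Falls of at least 2-fold made up 68 (0.0336%) and falls of at least 4-fold 10. The Dex libraries lay entirely above the control libraries at 848 of the 851 higher calls and entirely below at 228 of the 230 lower calls. Over all tested peaks the groups were separate at 6.96% upward and 6.90% downward.
The split of 78.7% higher (95% exact interval 76.2 to 81.1%, counting error only) moved with the processing, from 47.7% with the concentration of counts as a covariate, through 58.7% with total counts and 59.0% with loess offsets, to 80.6% with DESeq2's size factors in edgeR, and was 84.4% in another test, limma-voom. Concentration here is the share of counts held by the strongest 10% of peaks. It was 60.6, 62.0 and 60.8% in the control libraries and 63.5, 63.4 and 60.8% in the Dex libraries. Dex replicate 3 thus lay within the control range and the other 2 Dex libraries above it. With replicate 3 as the one Dex library all 1081 calls kept their sign, and the median rise at the higher calls was 0.76. Replicate 3 was among the libraries on which these calls were chosen, so the kept sign was largely set by that choice. The part of this concentration in the counts of calls was not tested beyond these fits.

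**Figure D1:**
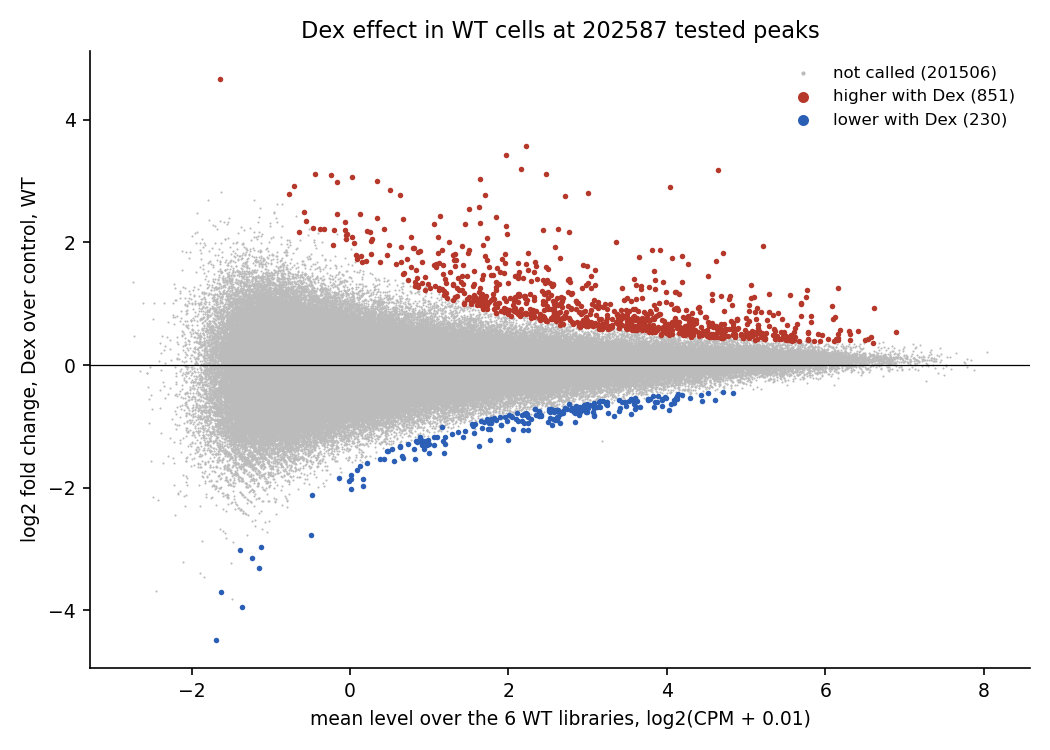
Log2 fold change, Dex over control, against the mean level of the 6 WT libraries on a log2(CPM + 0.01) scale, one point for each of 202587 tested peaks. The 851 higher calls reach further from 0 than the 230 lower calls at levels above 1 CPM (0 on the horizontal axis), and the largest falls lie at the lowest levels.

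Over all tested peaks the median control level was 1.24 CPM. At the 20 rises with the smallest p, at most 1 per gene, control levels ran from 0.615 CPM to 41.9 CPM. The first lay 1.53 kb outside nonagouti (symbol a), whose secreted product blocks melanocortin receptors (chromosome 2, 155051715 to 155053366), and stood at 3.81, 5.27 and 5.48 CPM in the control libraries and 48.98, 44.1 and 42.2 CPM in the Dex libraries. No Dex library came near a control library there, and the rise was 9.09-fold (log2 3.18 ± 0.15, adjusted p = 9.98e-25). A peak 22.8 kb upstream of Cxcr4, the receptor for the homing chemokine CXCL12 (chromosome 1, 128614316 to 128615908), stood at 14.3, 14.9 and 16.5 CPM in the control libraries and 60.8, 57.7 and 58.9 CPM in the Dex libraries, a 3.86-fold rise (log2 1.95 ± 0.11, adjusted p = 4.78e-20). Both groups were tight there and did not overlap. A peak 6.01 kb upstream of Klf9, a Krüppel-like factor induced by glucocorticoids in many tissues (chromosome 19, 23133843 to 23136594), stood at 33.6, 32.8 and 31.8 CPM in the control libraries and 84.5, 78.9 and 65.6 CPM in the Dex libraries (log2 1.22 ± 0.11, adjusted p = 4.22e-13). This peak also covers the annotated start of the non-coding gene 2410080I02Rik.
A peak 14.2 kb upstream of Gimap3, a GTPase of the immunity-associated family that supports lymphocyte survival (chromosome 6, 48784450 to 48785615), stood at 6.33, 8.48 and 8.04 CPM in the control libraries and 28.2, 22.6 and 27.05 CPM in the Dex libraries (log2 1.75 ± 0.14, adjusted p = 9.36e-15). One 12.7 kb from the start of Mchr1, the receptor for melanin-concentrating hormone, rose from 11.5 ± 0.836 to 37.7 ± 2.65 CPM (log2 1.70 ± 0.12, adjusted p = 1.13e-16) and covers the start of the non-coding gene 8430426J06Rik. Within Ppp1r21 a peak rose from 11.5 ± 0.480 to 40.98 ± 1.46 CPM (log2 1.84 ± 0.12, adjusted p = 6.92e-18). Beside Sae1, a subunit of the SUMO-activating enzyme, and Ube2s, a ubiquitin-conjugating enzyme of mitosis, peaks rose 3.15-fold and 4.03-fold. Peaks at Ift80, a protein of ciliary transport, at Grxcr2 and at Khdc1a rose 2.73-fold, 3.65-fold and 6.79-fold.

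Several of the largest rises started from control levels under 2 CPM. Within Cab39l, a scaffold of the LKB1 kinase complex (chromosome 14, 59506209 to 59506541), a peak stood at 1.22, 0.788 and 0.330 CPM in the control libraries and 11.2, 6.75 and 7.77 CPM in the Dex libraries (log2 3.57 ± 0.30, adjusted p = 6.53e-13). Replicate 1 was the highest of the Dex libraries there, and all 3 exceeded every control. A peak 17.8 kb upstream of Xbp1, the transcription factor of the unfolded protein response (chromosome 11, 5502576 to 5503172), stood at 0.915, 0.542 and 0.619 CPM in the control libraries and 4.73, 5.69 and 6.12 CPM in the Dex libraries (log2 3.04 ± 0.30, adjusted p = 4.71e-11). Within Neb, which encodes nebulin of muscle (chromosome 2, 52304449 to 52305279), the values were 0.915, 0.788 and 0.907 CPM in the control libraries and 9.27, 7.81 and 7.03 CPM in the Dex libraries (log2 3.20 ± 0.25, adjusted p = 1.69e-14). A peak 29.9 kb beyond the end of Cradd, an adaptor of caspase-linked death signalling, rose from 1.96 ± 0.251 to 14.01 ± 1.46 CPM (log2 2.81 ± 0.19, adjusted p = 5.85e-17).
The 20 rises hold at most 1 peak per gene, with no such limit for peaks without a gene, which can raise the share of the latter. Of all higher calls 14.7% lay more than 50 kb from any protein-coding gene, as did 10.3% of tested peaks. Among the 20 rises 6 lay that far away. The one with the smallest p, on chromosome 6 from 31345099 to 31346034, went from 3.87 ± 0.328 to 28.98 ± 4.05 CPM, and a peak on chromosome 2 from 149283289 to 149283661 went from 0.615 ± 0.322 to 7.23 ± 0.524 CPM, 10.8-fold. A peak on chromosome 16 from 55582485 to 55583439 went from 8.20 ± 1.27 to 28.4 ± 2.02 CPM and covers the start of the non-coding gene Gm45968. Every one of these 20 calls was kept without each of the 6 WT libraries in turn.

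**Figure D2:**
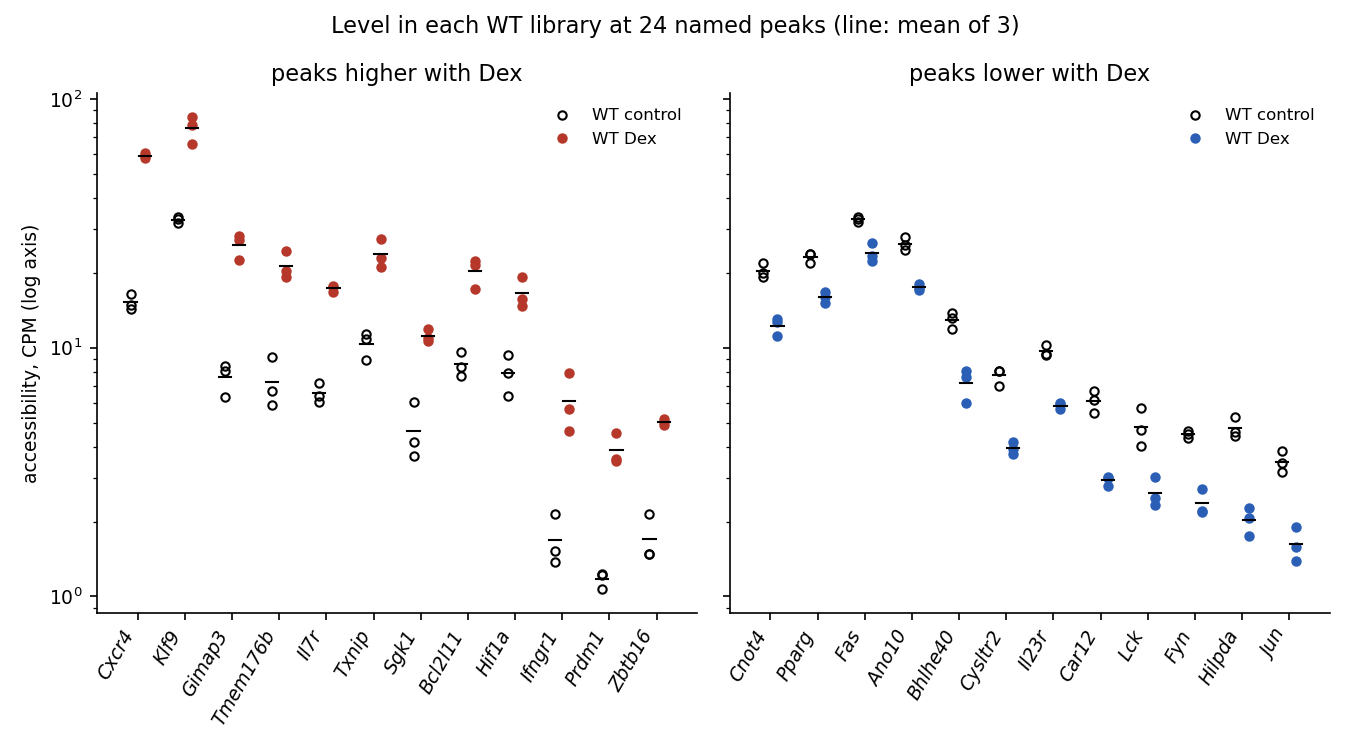
CPM (log axis) in each of the 6 WT libraries at 24 named peaks, open circles for control and filled circles for Dex, with a line at the mean of 3. The Dex circles lie wholly above the control circles in all 12 peaks on the left and wholly below in all 12 on the right.

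Falls were fewer than rises, and none was at a promoter window of a protein-coding gene. The smallest p among them was at a peak within Sorcs2, a sorting receptor of the VPS10 family (chromosome 5, 36113597 to 36114391), which stood at 5.64, 4.93 and 6.10 CPM in the control libraries and 1.95, 2.51 and 2.67 CPM in the Dex libraries (log2 -1.22 ± 0.20, adjusted p = 0.000114). A peak 7.31 kb upstream of Cysltr2, a receptor for cysteinyl leukotrienes (chromosome 14, 73056142 to 73056704), stood at 8.08, 7.05 and 8.08 CPM in the control libraries and 4.16, 3.91 and 3.74 CPM in the Dex libraries (log2 -0.97 ± 0.17, adjusted p = 0.000307). In both cases all Dex libraries were below all controls. A peak 5.55 kb upstream of Hilpda, a hypoxia-induced inhibitor of lipolysis (chromosome 6, 29266612 to 29267256), stood at 4.58, 5.27 and 4.41 CPM in the control libraries and 2.27, 2.06 and 1.76 CPM in the Dex libraries (log2 -1.23 ± 0.22, adjusted p = 0.000591). A peak 46.6 kb upstream of Car12, a carbonic anhydrase of the hypoxia response, fell from 6.12 ± 0.611 to 2.93 ± 0.136 CPM (log2 -1.06 ± 0.19, adjusted p = 0.000406).
A peak 8.03 kb from Cnot4, a ubiquitin ligase of the CCR4-NOT deadenylase complex (chromosome 6, 35013650 to 35014419), stood at 19.2, 21.98 and 19.9 CPM in the control libraries and 12.98, 11.2 and 12.6 CPM in the Dex libraries (log2 -0.74 ± 0.13, adjusted p = 0.000417). A peak 19.9 kb from Bhlhe40, a transcription factor that sustains cytokine output in helper T cells (chromosome 6, 108685832 to 108687830), stood at 13.8, 11.9 and 13.2 CPM in the control libraries and 5.99, 8.09 and 7.66 CPM in the Dex libraries (log2 -0.83 ± 0.15, adjusted p = 0.000417). Both groups were again separate. Falls within Capzb, an actin-capping subunit, Cd47, the ligand that restrains phagocytosis, Kat6b, a histone acetyltransferase, and St3gal3, a sialyltransferase, had log2 values of -0.80, -1.05, -0.93 and -0.95. A peak 8.15 kb upstream of Anp32b, a histone chaperone, had -0.69. Of the 15 falls with the smallest p, at most 1 per gene, some calls were lost when a library was left out. They were lost at Plb1 without control replicate 2 (adjusted p = 0.110) and at Zfp469 without control replicate 3 or Dex replicate 1 (up to 0.0858). Without control replicate 3, calls were also lost at Ano10 (0.0640) and at a peak on chromosome 2 from 18604170 to 18604756, more than 50 kb from a coding gene (0.0530).

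Dex-responsive peaks were wide and lay away from transcript starts. The median width was 831 bases for higher calls and 586.5 for lower calls, against 378 over all tested peaks. Peaks assigned to a gene with a listed start lay at a median distance of 28393 bases when higher and 28561 when lower, against 18957 for all. Only 3.02% of those higher calls and none of those lower calls were within 1 kb of the start, against 9.02% of all such peaks. A promoter window of a protein-coding gene was overlapped by 17 higher calls (2.0%) and 0 lower calls, against 10918 tested peaks (5.39%). The part of peak width and level in these shares was not tested.
By level in the untreated cKO cells, 0.0681% of peaks under 1 CPM were called higher and 1.46% of peaks at 10 to 20 CPM. These cells are in neither group of the WT contrast, but their counts enter the filter of tested peaks, the scaling and the shared spread. Lower calls reached 0.490% at 5 to 10 CPM and were 0 among 1881 peaks over 50 CPM. The size of the rise fell with the starting level: 74 higher calls that began under 1 CPM had a median log2 of 2.13, 292 from 1 to 5 CPM had 1.11, 330 from 5 to 20 CPM had 0.68 and 155 over 20 CPM had 0.52. A low peak had to rise further to be called, so this order is partly set by the test.
The 17 promoter peaks were those of Gimap3, Gimap5, Orm3, Spatc1l, Arap2, Cd80, Cnp, Trpv2, Ctla2b, Il12rb2, H2ac4, Sgk1, 4930522L14Rik, Pspc1, Snx8, Smug1 and Acp6. Gimap3 had the smallest p and stood at 40.2, 44.6 and 43.96 CPM in the control libraries and 71.3, 71.6 and 67.99 CPM in the Dex libraries (log2 0.71 ± 0.10, adjusted p = 1.10e-06). Orm3, the gene of an acute-phase plasma protein, stood at 21.7, 22.2 and 21.6 CPM in the control libraries and 34.2, 36.9 and 33.6 CPM in the Dex libraries (log2 0.67 ± 0.11, adjusted p = 0.000140). Il12rb2, a chain of the IL-12 receptor, rose from 10.3 ± 1.31 to 16.1 ± 0.451 CPM (log2 0.64 ± 0.14, adjusted p = 0.00825), a call lost without control replicate 3 or Dex replicates 1 and 2 (adjusted p up to 0.167). In all of these the Dex libraries were the higher 3.

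**Figure D3:**
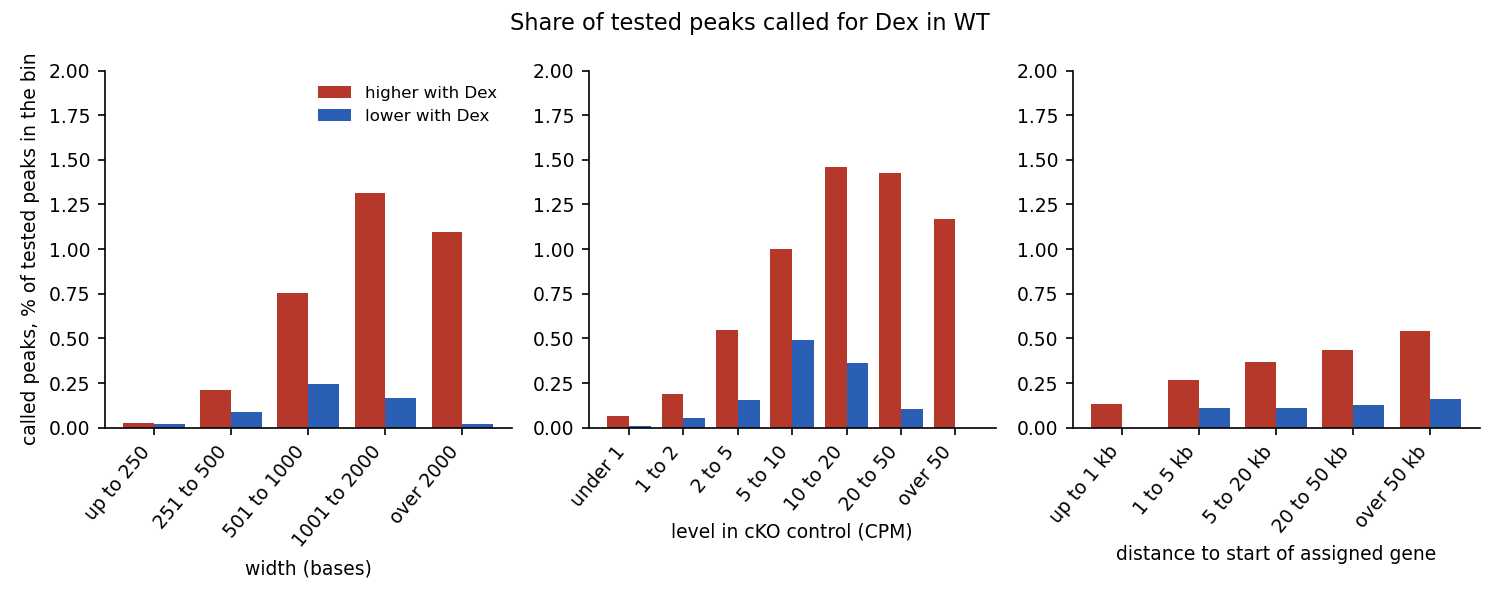
Share of tested peaks called higher (red) or lower (blue) with Dex, in percent, by peak width in bases, by mean level in the cKO control libraries in CPM, and by distance to the start of the assigned gene. Higher calls reach 1.46% at 10 to 20 CPM and are 0.131% within 1 kb of a start against 0.544% beyond 50 kb.

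Higher calls lay close to one another. Another higher call was within 10 kb of 184 of the 851 (21.6%) and within 50 kb of 328 (38.5%). Of all tested peaks, 1.94% and 7.32% had a higher call that near. A lower call was within 50 kb of 6 higher calls (0.705%), against 2.38% of all tested peaks. Lower calls had another lower call within 50 kb in 17 of 230 cases (7.39%). Joined where gaps were at most 50 kb, the higher calls formed 523 single peaks, 83 pairs, 27 runs of 3, 11 of 4, 4 of 5, 1 of 6 and 1 of 11, and the lower calls 213 single peaks, 7 pairs and 1 run of 3. None of these runs of 3 or more held a call in the opposite direction.
The longest run held 11 higher calls over 144 kb from the promoter of Arap2, an Arf GTPase-activating protein, to Dthd1, a death-domain gene (chromosome 5, 62765524 to 62909551). Of 26 tested peaks inside it, 25 had a positive log2, against 49.8% of all tested peaks. The 11 calls are among the 25. Counts of positive peaks in the other runs likewise include the calls that define each run, so they are partly set by that choice. Within the longest run a peak from 62857898 to 62858920 stood at 63.5, 66.03 and 60.6 CPM in the control libraries and 98.2, 94.5 and 88.1 CPM in the Dex libraries (log2 0.56 ± 0.09, adjusted p = 0.000139). At Pdcd4, an inhibitor of translation initiation, and its neighbour Gm30990, 5 calls lay in 38 kb and all 16 tested peaks were positive. The Pdcd4 peak 2.92 kb into the gene stood at 4.27, 4.88 and 3.67 CPM in the control libraries and 9.58, 9.99 and 9.02 CPM in the Dex libraries (log2 1.16 ± 0.18, adjusted p = 1.63e-05). At Fam107b 5 calls lay in 14 kb with 7 of 7 peaks positive, led by 71.3, 64.8 and 66.5 CPM in the control libraries and 137, 130.3 and 118 CPM in the Dex libraries (log2 0.93 ± 0.09, adjusted p = 1.64e-10).
At Sgk1 4 calls lay in 11 kb with 7 of 7 peaks positive. The peak 5.94 kb past the start (21999957 to 22001255) stood at 6.03, 4.19 and 3.67 CPM in the control libraries and 10.97, 11.9 and 10.6 CPM in the Dex libraries (log2 1.31 ± 0.17, adjusted p = 4.36e-07), and the last, 22004794 to 22005093, at 0.305, 0.0493 and 0.247 CPM in the control libraries and 1.13, 1.67 and 1.87 CPM in the Dex libraries (log2 2.98 ± 0.56, adjusted p = 0.000964). At Txnip, a glucocorticoid-induced brake on glucose uptake, 3 calls lay in 12 kb with 8 of 8 peaks positive. Runs of 4 joined Gimap5, Gimap3 and Tmem176b over 59 kb and Prps1 and Tsc22d3 over 38 kb, and runs of 3 lay at Hif1a, Il21 and N4bp1. By gene, the most called peaks were at Dthd1 (10 of 26 tested), Bcas3 (8 of 92), Dock10 (8 of 77), Tnr (7 of 59), Cradd (5 of 70), Neb (5 of 30), Fam107b (5 of 47) and Thada (5 of 91), all higher. Dock10 is an exchange factor for small GTPases in lymphocytes. The one run of lower calls lay on chromosome 16 from 5365522 to 5394206, more than 50 kb from a coding gene, where none of 12 tested peaks, its 3 calls among them, was positive.

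Gene lists were described by how many genes had a called peak, against 3.12% of all 17348 assigned genes with a higher peak and 1.08% with a lower one. A gene with more tested peaks has more chances of a call, so the share of peaks is also given for most lists, against 0.420% higher and 0.114% lower over all tested peaks. The lists were chosen with earlier results of these data known, so their shares are a description and not independent support. The classical glucocorticoid receptor targets had 11 higher and 0 lower of 29 genes, with 20 of their 478 peaks higher (4.18%) and a median log2 of 0.07. The members were Tsc22d3, Dusp1, Sgk1, Klf9, Zbtb16, Txnip, Il7r, Cxcr4, Zfp36l2, Il1r2 and Hif3a. A peak 4.04 kb upstream of Il7r, which encodes the IL-7 receptor alpha chain (chromosome 15, 9533291 to 9534549), stood at 7.25, 6.41 and 6.06 CPM in the control libraries and 17.8, 16.7 and 17.5 CPM in the Dex libraries (log2 1.41 ± 0.15, adjusted p = 3.45e-10). The Dex values were nearly equal and all above the controls. A peak 6.52 kb upstream of Txnip (chromosome 3, 96551008 to 96551858) stood at 8.92, 10.8 and 11.3 CPM in the control libraries and 27.2, 23.05 and 21.2 CPM in the Dex libraries (log2 1.18 ± 0.14, adjusted p = 2.10e-08). Within Zbtb16, the gene of the zinc-finger factor PLZF, a peak stood at 2.14, 1.48 and 1.48 CPM in the control libraries and 5.04, 4.91 and 5.16 CPM in the Dex libraries (log2 1.60 ± 0.25, adjusted p = 2.91e-05).
Tsc22d3 encodes GILZ, a leucine-zipper protein that mediates part of the anti-inflammatory action of glucocorticoids. Its called peak, 1.72 kb into the gene (chromosome X, 140540552 to 140541353), stood at 2.59, 4.58 and 4.37 CPM in the control libraries and 7.25, 7.53 and 7.66 CPM in the Dex libraries (log2 0.92 ± 0.19, adjusted p = 0.00403). The stronger peak at its start (140541472 to 140543605) stood at 38.1, 38.04 and 34.1 CPM in the control libraries and 46.8, 48.4 and 50.2 CPM in the Dex libraries, with the groups separate, and missed the threshold (adjusted p = 0.0502). The call inside the gene was lost without control replicate 1 (adjusted p = 0.0838). At Dusp1, a phosphatase that switches off MAP kinases, a peak 22.7 kb upstream rose from 15.2 ± 0.845 to 22.7 ± 4.15 CPM (log2 0.59 ± 0.13, adjusted p = 0.00713), a call lost without control replicates 2 and 3 or Dex replicate 2 (up to 0.274). Calls at Il1r2, the decoy receptor for IL-1, and at Hif3a were lost without 4 and 5 of the 6 libraries in turn, and the other 7 genes of the list kept theirs.
Other known targets had no called peak. At Fkbp5, a co-chaperone that damps the receptor, the peak with the smallest p of 42 stood at 0, 0.394 and 0.165 CPM in the control libraries and 0.630, 0.558 and 0.907 CPM in the Dex libraries (log2 1.76 ± 0.67, adjusted p = 0.373), too low for a firm value. At Per1, a clock gene with a known GRE, the peak stood at 106, 105 and 96.7 CPM in the control libraries and 117, 109 and 100.2 CPM in the Dex libraries (log2 0.09 ± 0.09, adjusted p = 0.883), and the groups overlapped. Of 21 genes of the receptor, its chaperones and its cofactors none had a called peak. The Nr3c1 peak with the smallest p stood at 3.36, 3.65 and 5.24 CPM in the control libraries and 2.77, 2.62 and 3.12 CPM in the Dex libraries (log2 -0.55 ± 0.21, adjusted p = 0.393).

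The Th17 list had 7 higher and 2 lower of 30 genes, with 12 of 1017 peaks higher (1.18%), 2 lower (0.197%) and a median log2 of -0.02. Higher were Hif1a, Il21, Il10, Il1r1, Cd5l, Tmem176b and Sox5, and lower Il23r and Bhlhe40. A peak 17.97 kb upstream of Hif1a, the oxygen-sensing factor that supports Th17 metabolism (chromosome 12, 73889184 to 73890618), stood at 9.31, 6.41 and 7.92 CPM in the control libraries and 19.2, 14.7 and 15.7 CPM in the Dex libraries (log2 1.08 ± 0.14, adjusted p = 7.11e-07). A peak 30.2 kb from Tmem176b, a membrane protein of Th17 cells, stood at 5.87, 6.70 and 9.20 CPM in the control libraries and 24.5, 19.2 and 20.4 CPM in the Dex libraries (log2 1.53 ± 0.15, adjusted p = 2.31e-11). Within Il10, the gene of the regulatory cytokine IL-10, a peak stood at 13.4, 15.03 and 17.5 CPM in the control libraries and 25.5, 22.6 and 24.3 CPM in the Dex libraries (log2 0.65 ± 0.12, adjusted p = 0.00120). These calls were kept without each library in turn.
A peak 9.28 kb from Il21, a cytokine that sustains Th17 cells, rose from 7.81 ± 0.329 to 12.7 ± 1.22 CPM (log2 0.70 ± 0.15, adjusted p = 0.00875), lost without control replicate 3 or Dex replicates 1 and 2 (up to 0.0997). Cd5l, a lipid regulator of non-pathogenic Th17 cells, Il1r1 and Sox5 had log2 values of 0.97, 0.95 and 0.66, with calls lost in 5, 4 and 5 of the 6 omissions. Within Il23r, the receptor for the cytokine that sustains pathogenic Th17 cells, a peak stood at 9.46, 9.36 and 10.3 CPM in the control libraries and 5.93, 5.97 and 5.67 CPM in the Dex libraries (log2 -0.73 ± 0.15, adjusted p = 0.00571), and its call was lost without control replicate 3 (adjusted p = 0.0823). The genes of IL-17 itself had no called peak. The Il17a peak with the smallest p went from 2.51 ± 1.11 to 1.26 ± 0.990 CPM (log2 -0.91 ± 0.52, adjusted p = 0.714), with a wide spread. That of Il17f, at 0.206 ± 0.115 and 0.703 ± 0.321 CPM, was too low for a firm value (log2 1.65 ± 0.62, adjusted p = 0.353). Other helper lineage genes had 2 higher of 20, Il12rb2 and Tox, with 3 of 402 peaks (0.746%), and each call was lost in 3 of the 6 omissions.

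Both receptor lists had higher calls and no lower ones, while Il23r, Fas and Cysltr2, receptors outside these lists, had falls. Of 25 cytokine receptor chains 7 were higher and 0 lower: Il4ra, Il7r, Il12rb2, Il1r1, Il1r2, Ifngr1 and Tgfbr3, with 8 of 553 peaks (1.45%). A peak 25.8 kb upstream of Ifngr1, a chain of the interferon-gamma receptor (chromosome 10, 19565861 to 19566348), stood at 1.53, 1.38 and 2.14 CPM in the control libraries and 7.94, 4.63 and 5.67 CPM in the Dex libraries (log2 1.82 ± 0.24, adjusted p = 4.59e-07), and it and Il7r kept their calls in every omission, while the other 5 did not. Costimulatory and co-inhibitory receptors and their regulator Prdm1 had 6 higher of 20 and 0 lower, with 7 of 430 peaks called (1.63%), 60.9% of the 430 positive and a median log2 of 0.11. A peak 36.7 kb from Prdm1, which encodes the repressor Blimp-1 (chromosome 10, 44565022 to 44565430), stood at 1.22, 1.23 and 1.07 CPM in the control libraries and 4.54, 3.57 and 3.52 CPM in the Dex libraries (log2 1.72 ± 0.29, adjusted p = 0.000143). The others were Cd28, Icos, Ctla4, Lag3 and Slamf1, with log2 values of 0.42, 0.54, 0.73, 0.74 and 0.56. Each of these 5 lost its call in at least 1 omission, with adjusted p up to 0.336 at Cd28.
Naive and stem-like factors had 4 higher of 20 and 0 lower, with 8 of 1069 peaks (0.748%), and migration and adhesion genes 5 of 27 and 0, with 13 of 656 peaks (1.98%). Of these 13 peaks, 8 were at Dock10 alone, so that share rests mainly on 1 gene. S1pr1, the receptor by which T cells leave lymphoid tissue, had a peak 36.8 kb away at 8.31, 7.64 and 7.46 CPM in the control libraries and 15.1, 14.3 and 11.9 CPM in the Dex libraries (log2 0.82 ± 0.14, adjusted p = 0.000281). Foxp1, a factor of T cell quiescence, had a peak within it that rose from 21.2 ± 2.09 to 34.9 ± 3.04 CPM (log2 0.72 ± 0.11, adjusted p = 4.50e-05). Itgb2, the beta chain of LFA-1, had one that rose from 20.2 ± 1.92 to 32.3 ± 1.71 CPM (log2 0.67 ± 0.11, adjusted p = 0.000166). Bcl2, Il7r, Cxcr4 and Dock10 were the other called members that kept their calls, and P2ry10 lost its call in 5 of the 6 omissions.

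Genes that restrain signalling had calls mostly on the higher side, but so did the tested peaks as a whole, with 78.7% of all calls higher. MAP kinase phosphatases and feedback inhibitors had 7 higher and 1 lower of 20, with 8 of 466 peaks higher (1.72%) and 1 lower (0.215%): Dusp1, Dusp2, Dusp14, Dusp16, Dusp22, Spred2 and Rasa2 rose, and Rasa3, a Ras GTPase-activating protein, fell (log2 -0.73 ± 0.18, adjusted p = 0.0277). Dusp22, a phosphatase that acts on Lck, had a peak 21.3 kb upstream at 4.12, 3.40 and 3.38 CPM in the control libraries and 8.45, 6.81 and 8.51 CPM in the Dex libraries (log2 1.14 ± 0.19, adjusted p = 0.000164), the only one of the 8 to keep its call in every omission. PI3K and mTOR brakes had 6 higher and 1 lower of 19, with 13 of 556 peaks higher (2.34%) and 1 lower (0.180%). They were Inpp4b, Pik3r1, Deptor, Txnip, Tsc22d3 and Sgk1 on the higher side, and Inpp5d, the phosphatase SHIP1, on the lower (log2 -0.70 ± 0.16, adjusted p = 0.0210). Of these, Sgk1 and Txnip kept their calls throughout. Tsc22d3, Txnip and Sgk1 are also in the receptor target list, and Sgk1 is itself a kinase downstream of PI3K.
Tolerance E3 ligases had 3 higher of 16, with 4 of 485 peaks (0.825%): Cblb, which kept its call in every omission, and Itch and Peli1, which each lost it in 1 (adjusted p = 0.0535 and 0.0851). Within Cblb, a ligase that sets the threshold of T cell activation, a peak stood at 24.4, 32.03 and 28.00 CPM in the control libraries and 45.01, 43.2 and 41.1 CPM in the Dex libraries (log2 0.61 ± 0.11, adjusted p = 0.000319). The mRNA decay and translation list had 3 higher and 1 lower of 16, Zfp36l2, N4bp1 and Pdcd4 against Cnot4, all kept in every omission, and 6 of 272 peaks were higher (2.21%) and 1 lower (0.368%). Within N4bp1, an inhibitor of NF-kB signalling, a peak stood at 41.1, 45.3 and 37.4 CPM in the control libraries and 69.1, 74.7 and 70.9 CPM in the Dex libraries (log2 0.80 ± 0.11, adjusted p = 8.16e-07). NF-kB genes had 2 higher of 17, with 3 of 303 peaks (0.990%): a peak 1.18 kb from Nfkbiz, an atypical inhibitor that Th17 cells need, stood at 4.27, 4.44 and 3.63 CPM in the control libraries and 7.56, 9.54 and 9.19 CPM in the Dex libraries (log2 1.10 ± 0.18, adjusted p = 9.10e-05), and one within Tnfrsf1b had log2 0.44 ± 0.11, with its call lost in 4 of the 6 omissions. AP-1 and early response genes split 2 and 2 of 23, with 2 of 400 peaks each way (0.500%), Batf3 (log2 0.49 ± 0.11) and Cd69 (log2 0.91 ± 0.18) higher and Fosl2 (log2 -0.82 ± 0.19) and Jun (log2 -1.09 ± 0.27) lower, all lost in 2 or more omissions. Of 30 T cell receptor signalling genes 2 were lower, with 2 of 963 peaks (0.208%): Lck and Fyn, kinases that start the signal, and their calls were lost in 5 and 6 of the 6 omissions. JAK, STAT and SOCS genes had 1 higher of 20, Jak1, with 1 of 365 peaks (0.274%), lost in 5 of the 6 omissions (up to 0.269). The TGF-beta pathway had 1 of 20, Tgfbr3, with 1 of 600 peaks (0.167%), lost in all 6 (up to 0.221).

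Apoptosis regulators had 4 higher and 1 lower of 21, with 12 of 518 peaks higher (2.32%) and 1 lower (0.193%), and the higher ones include both killers and protectors of the cell. Within Bcl2l11, which encodes the pro-apoptotic protein BIM (chromosome 2, 128152302 to 128154098), a peak stood at 7.70, 9.61 and 8.37 CPM in the control libraries and 21.4, 17.2 and 22.2 CPM in the Dex libraries (log2 1.24 ± 0.14, adjusted p = 1.10e-08). Within Bcl2, which encodes the survival protein that BIM binds, a peak stood at 67.8, 73.8 and 65.6 CPM in the control libraries and 109, 103 and 91.8 CPM in the Dex libraries (log2 0.55 ± 0.10, adjusted p = 0.000233). Cradd is given above, and Pmaip1, which encodes NOXA, had log2 1.12 ± 0.26, with its call lost in 4 of the 6 omissions (up to 0.215). Within Fas, the death receptor, a peak fell from 32.9 ± 0.808 to 24.04 ± 2.12 CPM (log2 -0.45 ± 0.11, adjusted p = 0.0305), lost in 5 of the 6 omissions.
Metabolic lists had calls in both directions. Hypoxia and glycolysis genes had 1 higher, Hif1a, and 3 lower of 20: Hilpda, Car12 and Adm, the gene of the peptide adrenomedullin (log2 -0.77 ± 0.18, adjusted p = 0.0199), whose call was lost in 3 of the 6 omissions. By peaks the list was even, with 3 of 417 each way (0.719%). Lipid genes had 1 higher and 2 lower of 23, with 1 (0.258%) and 2 (0.517%) of 387 peaks. Within Ppard, a fatty acid receptor, a peak stood at 4.27, 4.63 and 4.78 CPM in the control libraries and 7.69, 9.77 and 9.36 CPM in the Dex libraries (log2 0.96 ± 0.17, adjusted p = 0.000460). A peak 22.8 kb from Pparg, its relative, stood at 21.8, 23.7 and 23.9 CPM in the control libraries and 16.8, 15.96 and 15.1 CPM in the Dex libraries (log2 -0.54 ± 0.12, adjusted p = 0.0116) and lost its call in 5 of the 6 omissions, and Cysltr2 is given above. In the clock list Npas2, a partner of BMAL1, had a peak 8.24 kb upstream at 4.19, 3.94 and 4.95 CPM in the control libraries and 13.6, 12.7 and 9.98 CPM in the Dex libraries (log2 1.46 ± 0.17, adjusted p = 8.13e-09), Bhlhe40 was lower, and 16 of 18 genes had no call (1 of 321 peaks each way, 0.312%). Cell cycle genes had 1 higher of 20, Cdk6, with 3 of 275 peaks (1.09%), and 0 of 19 ubiquitous promoter genes had a call.

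**Figure D4:**
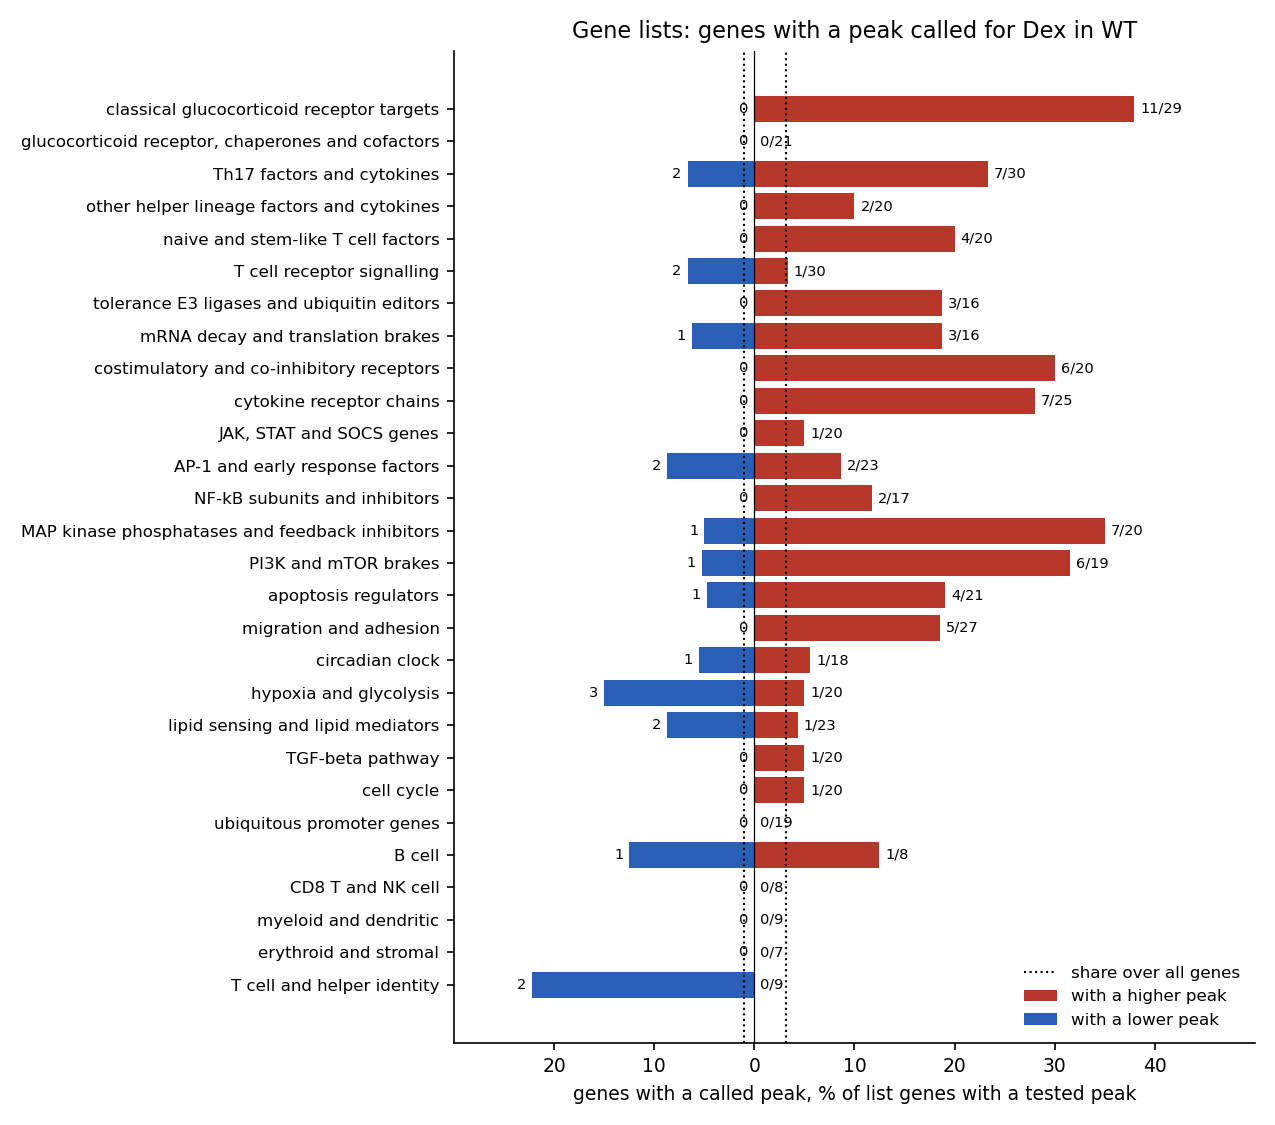
Percent of the genes of each list with a higher (red, right) or a lower (blue, left) called peak, with the number of genes beside each bar and dotted lines at the share over all genes, 3.12% and 1.08%. The classical receptor targets reach 11 of 29 to the right with 0 to the left, and the hypoxia list has 3 lower genes against 1 higher, though its called peaks are 3 each way.

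The labelled cell type was checked at its defining genes. The strongest peak stood at 46.02 and 45.9 CPM (mean of control and of Dex) for Cd4, 33.98 and 35.03 for Cd3e and 71.2 and 74.4 for Il17a, and none of these was called. Some markers of other cells stood as high at their strongest peak: Pecam1 at 49.9 and 51.1 CPM, Itgam at 48.8 and 53.1 and Ebf1 at 41.1 and 40.7. Others were low, such as Ms4a1 at 1.18 and 1.42 CPM. The level of the strongest peak therefore does not tell these cell types apart. Over the T cell and helper identity list 0 genes had a higher and 2 of 9 a lower peak, Lck and Il23r. Its 281 peaks summed to between 1595 and 1656 CPM in the control libraries and between 1482 and 1633 in the Dex libraries. Their median log2 was -0.12, with 33.8% positive against 49.8% of all tested peaks, and it was between -0.17 and -0.11 under the other scalings. Of markers of other cells, 0 of 8 CD8 T and NK, 0 of 9 myeloid and dendritic and 0 of 7 erythroid and stromal genes had a called peak. The 8 B cell genes had 1 higher, Bank1, and 1 lower, Ebf1, with calls lost in 4 and 5 of the 6 omissions, while their peaks summed to between 395 and 419.7 CPM in control and between 379.7 and 399 in Dex.

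The Dex effect was then set against that in cKO cells, which lack the receptor by label. That comparison shares no library with the WT one, only the filter of tested peaks, the joint scaling and the estimate of spread. Dex changed 6 peaks there (0.00296%), and the median log2 in cKO was 0.21 over the 851 peaks higher in WT and -0.06 over the 230 lower. The difference of the Dex effects, WT minus cKO, was called at 56 peaks (0.0276%), and 53 of these were higher calls in WT and 1 a lower call. Since the WT calls were chosen on the WT effect, a smaller cKO median is partly set by that choice, and only the difference test bears on single peaks. At the nonagouti peak the cKO values were 4.02, 6.52 and 6.07 CPM in control and 8.91, 10.2 and 11.6 CPM in Dex-treated cKO cells, a log2 of 0.88 ± 0.15, and the difference was 2.31 ± 0.21 (adjusted p = 2.12e-10). At Cxcr4 they were 12.8, 13.4 and 15.9 CPM in control and 22.7, 27.5 and 21.97 CPM in Dex-treated cKO cells, a log2 of 0.78 ± 0.12, with a difference of 1.17 ± 0.16 (adjusted p = 3.73e-05). In both, the cKO Dex libraries still lay above the cKO controls.
At Klf9 the cKO values were 31.1, 28.9 and 29.6 CPM in control and 39.3, 36.4 and 31.8 CPM in Dex-treated cKO cells, and the difference was 0.96 ± 0.15 (adjusted p = 0.000444). At Cab39l the cKO effect was 0.08 ± 0.33 and the difference 3.49 ± 0.46 (adjusted p = 1.58e-05), and at Xbp1 they were 0.65 ± 0.31 and 2.39 ± 0.44 (adjusted p = 0.00752). At Nfkbiz the cKO effect had the opposite sign, -0.28 ± 0.19, with a difference of 1.38 ± 0.26 (adjusted p = 0.00964). For Hif1a and Bcl2l11 the differences were 1.03 ± 0.21 (adjusted p = 0.0241) and 0.98 ± 0.20 (adjusted p = 0.0396). No difference was called at Sgk1, Txnip, Il7r, Tsc22d3 or Zbtb16, with values of 0.80 ± 0.24 (adjusted p = 0.547), 0.75 ± 0.20 (adjusted p = 0.361), 0.94 ± 0.21 (adjusted p = 0.0892), 0.80 ± 0.27 (adjusted p = 0.676) and 1.36 ± 0.36 (adjusted p = 0.317), which does not show that the effects were alike. Of the named falls, that on chromosome 2 from 18604170 to 18604756 was the one with a called difference, -1.09 ± 0.23 (adjusted p = 0.0395).

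**Figure D5:**
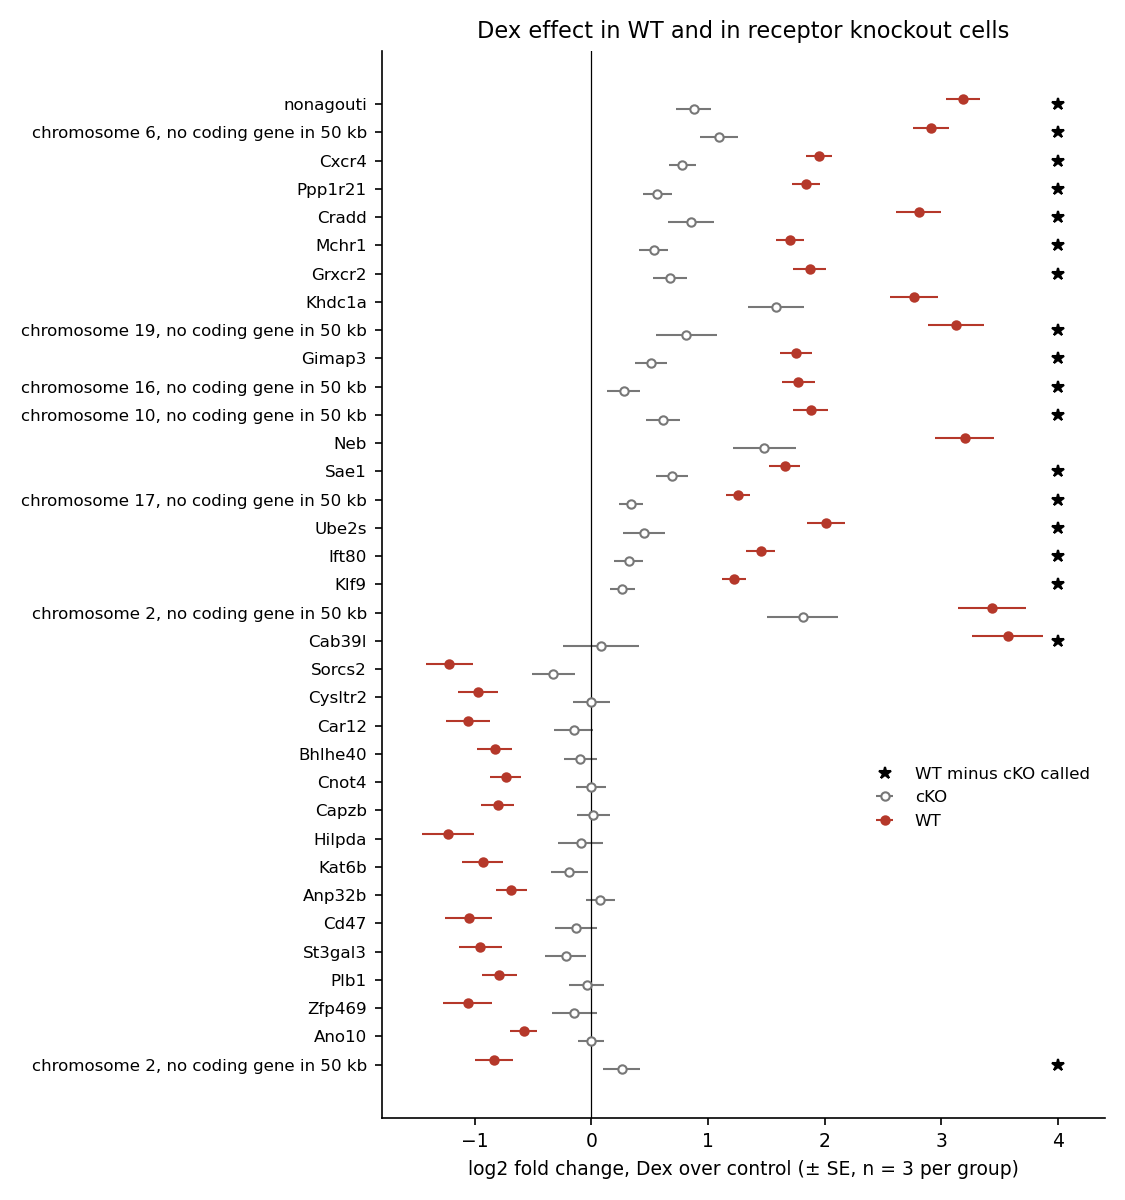
Log2 fold change, Dex over control, ± SE (n = 3 per group) in WT (filled) and in receptor knockout cells (open) at the 20 rises and 15 falls with the smallest p in WT. Both sets hold at most 1 peak per gene. Stars mark a called difference between the effects, and every open point of the 20 rises lies to the left of its filled point. These peaks were chosen on the WT effect, so that order is partly set by the choice.

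The threshold cut through a continuous series of values. Just inside it were a fall within Cdkal1 (adjusted p = 0.0495) and the Acp6 promoter peak (0.0496), and just outside the Tsc22d3 start peak (0.0502) and a peak within Tgfbr3 (0.0503). With 1 WT library left out, the calls numbered 719, 635 and 603 without control replicates 1, 2 and 3 and 507, 624 and 984 without Dex replicates 1, 2 and 3. All 1081 kept their sign, which was largely set by choosing them on all 6 libraries. Of the 184 called peaks chosen for description, 83 kept the call in every omission, 71 of 147 higher and 12 of 37 lower.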

How the data were processed

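Per the labels, ATAC-seq was made from 12 libraries, 3 in each of 4 groups. The submitters' processing notes name Genrich 0.6.1 and featureCounts 2.1.1, Bowtie2 2.3.5 and the build mm10, and also SAMtools 1.3, Picard 2.18.27, Trimmomatic 0.39 and deepTools 3.5.6. The authors deposited raw read counts over 222105 joint peaks, each with its length in bases. The 6 WT libraries held 12988437 to 24595233 counts, and no pair of a group agreed within sampling noise.

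From these counts, 202587 peaks passed edgeR's filter (minimum count 10, minimum total 15) and 19518 were left out. TMM scaling and the robust quasi-likelihood test (R 4.3.3, edgeR 4.0.16) were run on all 12 libraries with 1 coefficient per group, giving 8 residual degrees of freedom. The median coefficient of biological variation was 24.8%. The test was also run on simulated counts. Peaks were assigned to the protein-coding gene that holds their centre, or else the nearest within 50 kb, with RefSeq coordinates of the same build. Alternatives used limma 3.58.1 and DESeq2 1.42.0, other scalings and filters, a block by replicate number and each library left out.

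The genes named include the 20 higher and 15 lower calls with the smallest p. The 10 of each with the largest fold at 2 CPM or more were added, and both sets hold at most 1 peak per gene. Further named were the 8 genes with most calls and all 17 promoter calls. The called members of 28 gene lists with a few uncalled ones, and 5 peaks on each side of the threshold, complete the set. The comparison and lists were chosen with earlier results of these data known. Promoter windows were matched to 17492 of 21900 protein-coding genes. Distal peak sequence was not used here, and some list members are not reported here.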

Additional observations from a re-analysis of the deposited data

Results flagged for a closer look

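At 26 of the peaks described, the Dex effect in WT cells differed from that in cKO cells by edgeR's test of the difference (WT minus cKO, log2, adjusted p under 0.05). The differences were 3.49 at Cab39l, 2.39 at Xbp1, 2.31 at nonagouti, 1.95 at Cradd, 1.56 at Ube2s and 1.46 at Thada. They were 1.38 at Nfkbiz, 1.27 at Ppp1r21, 1.24 at Gimap3, 1.20 at Grxcr2, 1.17 at Cxcr4, 1.17 at Mchr1, 1.14 at Tmem176b and 1.13 at Ift80. At Hif1a the difference was 1.03, at Bcl2l11 0.98, at Sae1 0.96, at Klf9 0.96, at Neb 0.83 and at Fam107b 0.64.

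Of the peaks more than 50 kb from a protein-coding gene, the difference was 2.31 on chromosome 19 (start 23056894), 1.81 on chromosome 6 (31345099), 1.50 on chromosome 16 (55582485), 1.27 on chromosome 10 (21676448) and 0.92 on chromosome 17 (84115758). On chromosome 2 (18604170), where Dex lowered the peak in WT, it was -1.09.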

How the results depend on the processing

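The number of called peaks (1081, 78.7% higher) and of called differences between genotypes (56) moved with the processing. They were 1757, 58.7% higher and 113 with total counts, 2139, 59.0% and 190 with loess offsets, 2525, 64.6% and 202 with a minimum count of 30, and 2244, 47.7% and 248 with the concentration covariate. With the WT libraries alone 168193 peaks were tested and 1760 called, 70.7% higher, and limma-voom gave 84.4% higher. With Dex replicate 3 as the one Dex library, an alternative chosen after seeing the data in which its spread is assumed to be that of the other groups, 171 were called, 93.0% higher, with 9 differences. Leaving out 1 WT library gave 507 to 984 calls, 75.2 to 88.3% higher, and 29 to 55 differences. The causes were not tested. All 1081 calls kept their sign in each setting that tested them all, which was largely set by choosing them on the same libraries. At Per1, which was not called, log2 0.09 became -0.0355 with loess offsets and -0.0214 with Dex replicate 3 alone.

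Same-numbered WT libraries did not deviate together over all tested peaks (r = -0.0772, 0.0534 and -0.118). The median control level of these peaks was 1.24 CPM, and sampling noise at low peaks pulls r toward 0. These values therefore cannot decide whether the numbers mark pairs. The fit with the replicate block called 1295 peaks, 77.8% higher, and 64 differences. Of the 184 called peaks described, 101 lost the call without at least 1 library, with 56, 63 and 76 lost without control replicates 1, 2 and 3 and 84, 63 and 27 without Dex replicates 1, 2 and 3, and none reversed. With 3 libraries a group, small changes at low peaks could not be detected.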

Other observations

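Some called peaks lay near microRNA genes, which the assignment to protein-coding genes passes over. A peak assigned to Fancc (chromosome 13, 63302444 to 63304546) lay 2.22 kb from Mir24-1, 2.71 kb from Mir27b and 2.94 kb from Mir23b, which form a cluster. It stood at 3.36, 2.56 and 2.80 CPM in the control libraries and 6.05, 4.63 and 5.50 CPM in the Dex libraries (log2 0.91 ± 0.21, edgeR adjusted p = 0.0170), and the groups did not overlap. The Npas2 peak lay 0.869 kb from Mir6349. A peak 4.95 kb from Mir339, assigned to 3110082I17Rik, rose from 13.6 ± 1.25 to 22.1 ± 2.54 CPM (log2 0.70 ± 0.13, edgeR adjusted p = 0.000430), and one 6.76 kb from Mir361, assigned to Chm, rose from 8.00 ± 1.60 to 13.8 ± 2.22 CPM (log2 0.81 ± 0.15, edgeR adjusted p = 0.00101). One peak near a microRNA gene was lower: 8.59 kb from Mir692-1, assigned to Rsph3b, it fell from 2.50 ± 0.101 to 1.05 ± 0.330 CPM (log2 -1.24 ± 0.31, edgeR adjusted p = 0.0394). In cKO cells the log2 values at the Mir339 and Mir361 peaks were -0.10 and 0.32.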
